A study of Ceratina calcarata with 12 samples.

Results

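Windows of intermediate methylation are stretches of 200 bp of the genome of the small carpenter bee Ceratina calcarata in which methylated and unmethylated reads were both common at the CpGs counted. They were chosen on their measured level. CpGs with 1 to 170 reads in each of 6 bisulfite libraries were kept, windows with 2 to 9 such CpGs were taken, and the methylated reads were divided by all reads over those CpGs and all 6 libraries. A window was a member at 20% to under 60%. This gave 11688 members of 39224 windows with 2 to 9 CpGs (29.8%) and of 45303 windows with 2 or more. The members held 57690 of the 273427 CpGs kept (21.1%). Because the level chose the members, levels and the CpG values behind them are given as descriptions, and tests were made only of the difference between groups and of gene expression.

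The libraries were made from heads of newly eclosed adult offspring, which the study describes as females from different nests. Nests in dead sumac stems were collected while mothers were provisioning eggs and were reared in the laboratory. In care the mother stayed with the nest until the offspring were adult, and in no care she was removed after the eggs had been provisioned with pollen, which was kept. Each group had 3 bisulfite libraries of 9 pooled heads and 3 RNA libraries of 3 pooled heads, so spread between libraries is spread between pools. Among the gene models with a fly name, the head genes Rh3 and Rh6, opsins of the eye, were at 943 to 1434 and 545 to 2923 counts relative to the library total (CPM) over the RNA libraries.

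In insects, DNA methylation lies mainly at CpGs inside genes, above all in exons of genes that are expressed in most tissues, and much of the rest of the genome carries little. Bisulfite changes unmethylated cytosine only, and the methylation level of a CpG is the percentage of its reads that stayed unconverted. A read covers one DNA molecule, and the level of a CpG is a share of molecules over all cells of all pooled heads. An intermediate level in such a pool does not say whether cells, bees or the parental copies of a gene differed. The authors had kept only CpGs methylated above nonconversion in at least 1 library, so the levels refer to such sites.

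The members filled the slope of a skewed distribution. Weakly methylated windows, below 20%, numbered 22021, and highly methylated windows, at 60% or more, numbered 5515. The count fell from 8585 windows at 5% to under 10% to 1172 windows at 50% to under 55%, and stayed between 862 and 1177 per 5 points from there to 80%. The median member stood at 36.1% (quartiles 26.7% and 47.6%), with 5 CpGs and 326 reads over the 6 libraries. By level, 4018 members (34.4%) lay at 20% to under 30%, 2838 at 30% to under 40%, 2483 at 40% to under 50% and 2349 at 50% to under 60%.

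**Figure D1:**
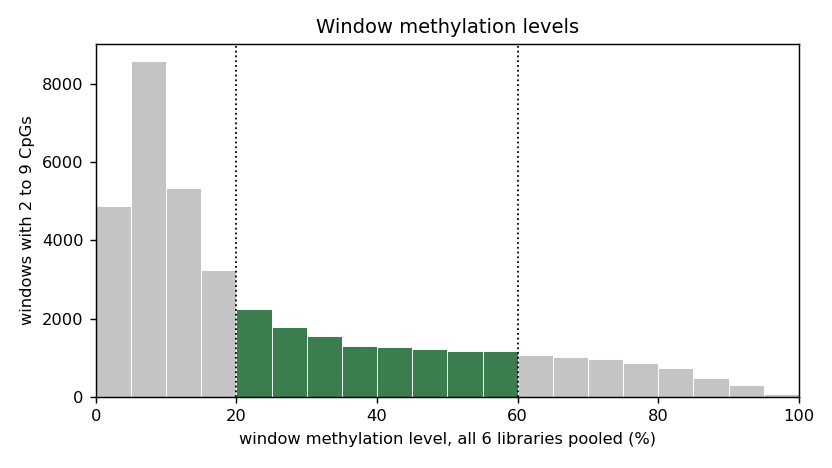
Number of windows with 2 to 9 CpGs (vertical axis) by methylation level pooled over the 6 libraries (horizontal axis, %, bars of 5 percentage points). Green bars between the dotted lines are the 11688 intermediate windows; the grey bars are the 22021 windows below 20% and the 5515 at 60% or more.

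The limits cut a continuous range. Just below the lower limit, scaffold78.2:3097401-3097600 had 198 methylated of 991 reads (19.98%), and 48 windows were at exactly 20% and therefore members. Just below the upper limit, scaffold289.2:1002601-1002800 had 460 methylated of 767 reads (59.97%), and 25 windows at exactly 60% were not members. Positions are those of the authors' files.

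Few members were uniformly intermediate. Of the CpGs in members, 26.7% were themselves below 20%, 54.5% were at 20% to under 60% and 18.8% were at 60% or more. The CpGs of one member differed by a median of 44.0 percentage points from the lowest to the highest. In 4766 members (40.8%) this range exceeded 50 points, which is called mixed here, against 36.0% of the highly and 0.377% of the weakly methylated windows. In 3942 members (33.7%) a CpG below 20% and a CpG at 60% or more lay in the same 200 bp. In 1716 members (14.7%) all CpGs were within 20 points of each other. All CpGs were intermediate in 1420 members (12.1%), but in only 155 of the 6087 members with 5 or more CpGs. The mixed share grew with the number of CpGs counted, from 13.6% of members with 2 to 65.8% of those with 9.

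The 3 members with the widest CpG range, among those with 5 or more CpGs and at least 10 reads at each CpG in each library, are given with their CpGs. In scaffold71:266601-266800, at 46.2% over 2013 reads, the CpG at position 111 of the window was at 97.6% and the CpG at position 197 was at 3.37%. Between them, the CpG at position 164 was at 18.9%. The first CpG ran from 93.5% to 100% and the second from 0% to 7.55% over the 6 libraries, so every pool held the same contrast. In scaffold393:40601-40800, at 40.7%, CpGs at positions 122, 137 and 148 were at 6.67%, 4.66% and 3.09%, and the CpG at position 194 reached 97.2%. In scaffold93:479201-479400, also at 46.2%, a block of CpGs at positions 51, 66 and 88 stood at 75%, 97.5% and 92.4%, and the last 3 CpGs of the window lay between 3.43% and 6.90%.

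By the same rule, the 3 members with the narrowest range were even along their length. In scaffold114:293201-293400, at 27.7% over 1015 reads, 5 CpGs lay between 23.8% and 29.6%. In scaffold569.2:771201-771400, at 53.5% over 1195 reads, 8 CpGs lay between 49.7% and 60.9%. In scaffold153.2:132201-132400, at 21.3%, 5 CpGs lay between 15% and 28.9%. Single libraries scattered more than the pooled values there. The CpG at position 95 of the window on scaffold569.2, for example, ran from 31.3% to 81.3%.

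**Figure D2:**
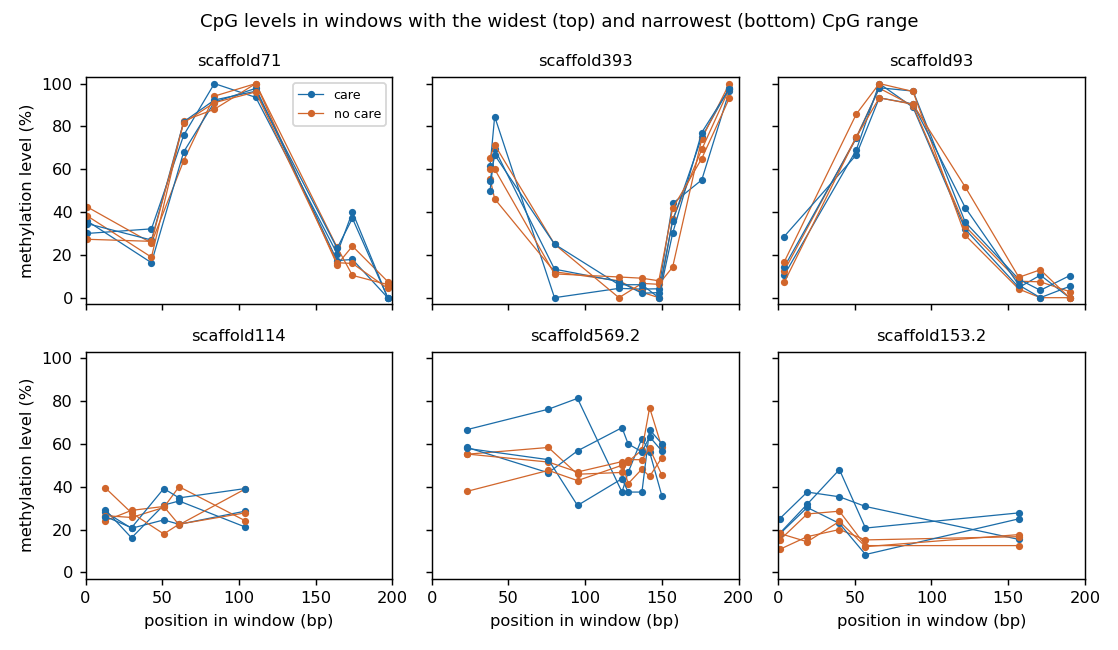
Methylation level of each CpG (vertical axis, %) by its position in the 200 bp window (horizontal axis, bp) in the 3 members with the widest CpG range (top) and the 3 with the narrowest (bottom). Each line is 1 library, blue for care and orange for no care; in the top row all 6 lines follow one course between about the same high and low CpGs, such as 97.6% and 3.37% on scaffold71.

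The highest and the lowest CpG of a mixed member were compared in each library. Of the mixed members, 1119 had at least 10 reads at every CpG in every library. In all 1119 the CpG with the highest pooled level was above the CpG with the lowest in each of the 6 libraries, and the smallest of the 6 gaps had a median of 54.6 points. The pooled highest CpG ranked first in every library in 536 (47.9%), and the pooled lowest ranked last in every library in 309 (27.6%). The gap was chosen to be wide over the same 6 libraries, which favours its recurrence in each of them, so these counts are a description only.

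CpGs that lay close together had similar levels. Of the 46002 pairs of adjacent CpGs in members, 16759 (36.4%) had at least 10 reads at each CpG in each library and were used. Over these, at a median spacing of 17 bp, the median absolute difference was 9.61 points at 2 to 5 bp and 9.73 points at 6 to 10 bp. It was 12.2 points at 11 to 20 bp, 18.2 points at 21 to 50 bp and 26.3 points at 51 to 100 bp. The share of pairs more than 30 points apart went from 7.0% at 2 to 5 bp to 44.9% at 51 to 100 bp. In the 152 pairs more than 100 bp apart the median was 20.4 points. Adjacent pairs share windows and reads, and close CpGs are often covered by the same read.

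Beyond the window, the median level stayed near that of the members for about 400 bp on either side and then dropped. Single neighbours with a kept CpG were spread over all levels. At 200 bp before a member 26.8% of them were weakly methylated, 51.7% intermediate and 21.6% highly methylated. At 400 bp before a member the shares were 34.9%, 40.5% and 24.6%. After a member they were 26.4%, 51.9% and 21.6% at 200 bp and 34.8%, 40.7% and 24.5% at 400 bp. At 200 bp before and after a member, 87.8% and 88.2% of positions had a kept CpG, and the median levels there were 35.3% and 35.2%. The medians were 32.3% and 32.7% at 400 bp, 24.1% and 23.7% at 600 bp, 16.6% and 16.4% at 800 bp and 11.9% on both sides at 1200 bp. They were higher again at 2000 bp, at 16.5% and 16.3%. Around highly methylated windows the median went from 73.2% at the window to 58.4% and 58.1% at 200 bp and 36.5% and 36.8% at 400 bp. From 600 bp outward the medians around highly methylated windows and around members lay within 3 points of each other.

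**Figure D3:**
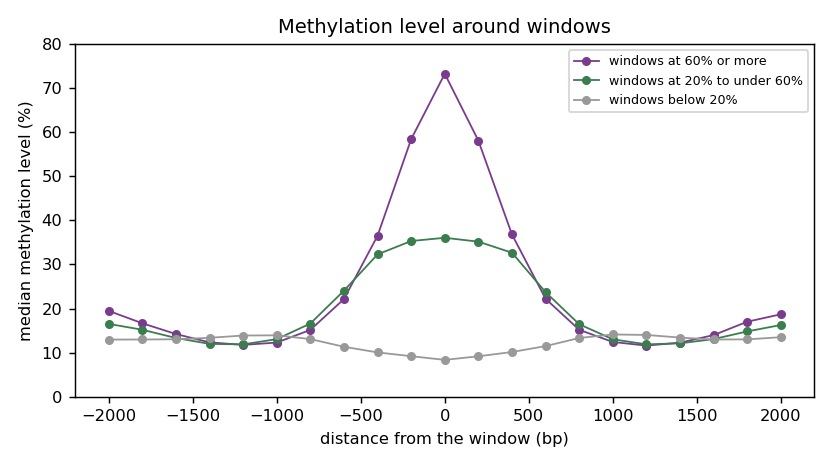
Median methylation level (vertical axis, %) of windows with a kept CpG by their distance (horizontal axis, bp) from highly methylated, intermediate and weakly methylated windows. Around intermediate windows the median is 35.3% and 35.2% at 200 bp and 11.9% at 1200 bp; around highly methylated windows it drops from 73.2% to 58.4% and 58.1% within 200 bp.

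The windows directly beside members are described next. Of the 9048 members with a CpG-holding window on both sides, 6029 (66.6%) had a level between those of the 2 neighbours. Above both were 1969 (21.8%), and 1047 (11.6%) were below both. Members were chosen for a middle level, which favours a place between 2 neighbours, and the share for other windows is not given. Neighbours were classed by level alone, whatever their number of kept CpGs, so a neighbour at an intermediate level need not be a member. Such a neighbour lay directly beside 8400 members (71.9%) and a highly methylated window beside 4270 (36.5%). A highly methylated window on one side and a weakly methylated window on the other flanked 1216 members (10.4%). Weakly methylated windows on both sides flanked 503 (4.30%), and 167 (1.43%) had no kept CpG on either side.

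Counted as runs of adjacent members, 4845 members (41.5%) stood singly and 3518 were in runs of 2. The longest run was scaffold143:35001-36600, where 8 members over 1600 bp, with 48 CpGs and 3600 reads, ranged from 27.0% to 56.1%. Its level was 45.8%, 42.9% and 38.7% in care replicates 1, 2 and 3 and 45.8%, 43.6% and 40.9% in no care replicates 1, 2 and 3. The groups overlapped. Of the 6 runs of 7 members, the one with the most CpGs was scaffold493.2:216001-217400, where 39 CpGs had 3553 reads and window levels of 20.3% to 51.4%. This run was at 37.0%, 36.7% and 33.9% in care and at 33.0%, 31.0% and 31.0% in no care, with no overlap.

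Library by library, the level of a member moved mostly within the range that chose it. Among the 7484 members with at least 20 reads in all 6 libraries, 4384 (58.6%) were at 20% to under 60% in every library. Another 1764 fell below 20% in at least 1 library, and 1338 reached 60% in at least 1. Only 2 did both. The 6 library levels of a member spanned a median of 14.6 points (quartiles 10.7 and 19.9). The median reads per member were 37, 66 and 37 in care replicates 1, 2 and 3 and 70, 63 and 51 in no care replicates 1, 2 and 3. Within groups, the spread of library levels was wider than sampling gives if every count at a CpG is independent. A read over several CpGs is counted at each of them, so spread between pools is not separated from this. The chi-square per degree of freedom, with 4 degrees of freedom in a window, had a median of 1.07 and a mean of 1.29 over the members. Independent sampling gives 0.839 and 1. The median and mean were 1.20 and 1.41 in weakly methylated windows and 0.992 and 1.21 in highly methylated windows. By CpG number, the median was 0.931 in members with 2 CpGs and 1.36 in those with 9.

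Among members with at least 50 reads in every library, the 3 widest spans were the following. In scaffold579.2:485001-485200 the levels were 72.0%, 62.2% and 68.7% in care replicates 1, 2 and 3 and 56.1%, 31.3% and 69.7% in no care replicates 1, 2 and 3. No care replicate 2 stood low and no care replicate 3 lay inside the care values. In scaffold78.2:2572801-2573000 the levels were 64.4%, 48.4% and 58.2% in care and 50.6%, 29.2% and 45.9% in no care, where replicate 2 was again low. In scaffold154.2:204401-204600 the care libraries alone ran from 16.4% in replicate 3 to 50% in replicate 1. None of the 3 passed the test of the groups below, with adjusted p of 0.106, 0.156 and 0.611 by the logistic regression with Benjamini-Hochberg adjustment.

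The comparison of care with no care asks whether offspring raised without a mother differed in methylation. Summed over all members, the methylated share was 38.7%, 39.3% and 38.4% in care replicates 1, 2 and 3, and 37.6%, 36.8% and 37.9% in no care replicates 1, 2 and 3. All 3 care libraries lay above all 3 no care libraries. The means were 38.8% ± 0.461 and 37.4% ± 0.542 (SD, n = 3 pools each), a difference of -1.35 percentage points as no care minus care, or -3.48% of the care level. With the same weight for each member the means were 38.0% ± 0.339 and 37.0% ± 0.357, again without overlap. Highly methylated windows had 73.8% ± 0.349 in care and 72.1% ± 0.508 in no care without overlap, and weakly methylated windows had 8.36% ± 0.167 and 8.23% ± 0.0514 with overlap. With the same weight for each window the weakly methylated windows were at 9.37% ± 0.324 and 8.90% ± 0.12 without overlap, a difference of -4.96% of the care level against -2.72% in members. Windows with 10 or more CpGs had 27.1% ± 0.521 and 26.2% ± 0.555, also without overlap. Unmethylated lambda DNA, the control for conversion, showed a methylated share of 0.521% to 0.628% in care and of 0.482% to 0.512% in no care, a gap of 0.0679 points between the means. Care replicates 1 and 3 also had the fewest reads. The part of these in the difference was not tested.

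**Figure D4:**
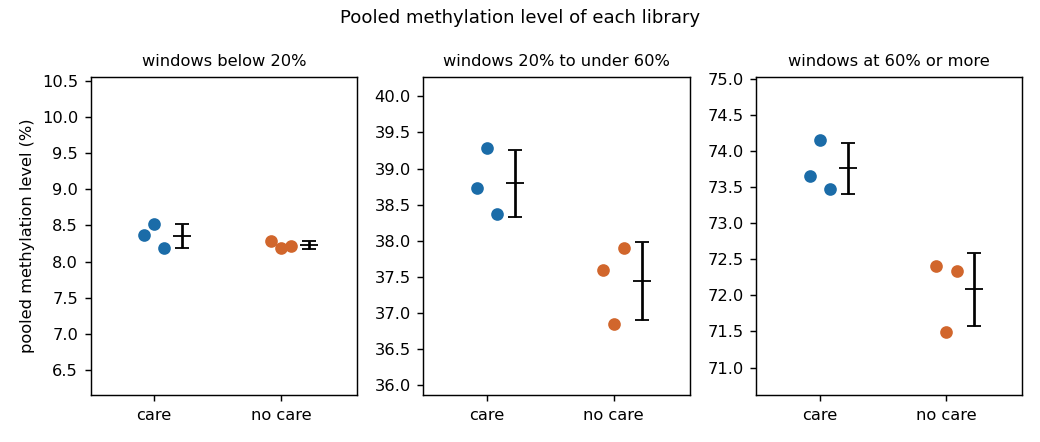
Share of methylated reads (vertical axis, %) of each library over weakly methylated, intermediate and highly methylated windows, with care in blue and no care in orange. Each point is 1 library of 9 pooled heads, the bars to the right are the mean and SD of 3 libraries, and the panels have axes of equal span that do not start at 0. Intermediate windows show 38.4% to 39.3% in care and 36.8% to 37.9% in no care.

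Single members were compared by a logistic regression on the reads of each group, fitted to all 45303 windows, which takes the reads of a group as one sample. Calls needed an adjusted p under 0.01 together with more than 5 points between the groups. Of the members, 25 (0.214%) were called, against 0.32% of all windows. There were 19 higher in care, where the share over all windows was 0.267%, and 6 higher in no care, where it was 0.053%. All windows include those with 10 or more CpGs, which cannot be members and of which 1.20% were called. Over windows with 2 to 9 CpGs, which include the members, the share called was 0.184%. The members' share lay below that of all windows and slightly above that of windows with 2 to 9 CpGs. These were not matched on CpG number, with a median of 5 CpGs in members, 3 in weakly and 4 in highly methylated windows. An unadjusted p under 0.05 was found in 1327 members (11.4%), in 12.7% of windows with 2 to 9 CpGs and in 14.1% of all windows. Among windows with at least 400 reads, 23 of 4994 members (0.461%), 0.315% of windows with 2 to 9 CpGs and 0.541% of all windows were called. Differences of more than 5 points were found in 4993 members (42.7%), in 30.1% of windows with 2 to 9 CpGs and in 27.4% of all windows. The median member had 326 reads and a level of 36.1%, against 432 reads and 17.3% over all windows. The part of depth and level in these shares was not tested. This test leaves out the spread between libraries. The counts were lower in tests with an overdispersion and in limma, and the cause was not tested. With one overdispersion for all windows, taken from the median chi-square per degree of freedom of 1.17, 8 members were called (0.0883% of all windows), and with its mean of 1.41, an alternative added after the data were seen, 2 were called (0.0221%). With an overdispersion in each window, 0 members and 0.0% of all windows were called. Limma on the log2 ratio of methylated to unmethylated reads gave the same. The former has 4 degrees of freedom in a window and an overdispersion of at least 1. Over 45303 windows this leaves little room for a call, so its 0 decides nothing. Of the 11688 members, an unadjusted p under 0.05 was found in 171 and 845 by these tests, against 1327 by the logistic regression. The shares over all windows are not given for them. Without care replicate 2, the most deeply sequenced care library, 9 members were called, and without no care replicates 1 and 2 the counts were 16 and 8. Of these, 6, 12 and 4 were higher in care. The share over all windows went down with them, to 0.11%, 0.258% and 0.146%. Without no care replicates 1 and 2 the members, at 0.137% and 0.0682%, also lay below the windows with 2 to 9 CpGs, at 0.145% and 0.0764%.

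Direction leaned to care across the members as it did elsewhere. In 6800 members (58.2%) the pooled level was higher in care, in 4866 it was higher in no care and in 22 it was equal. The median difference was -1.12 points, against -0.81 over all windows. The 3 care and 3 no care libraries did not overlap in 1322 members (11.3%), against 11.7% of all windows. Care lay above in 852 members (7.29%) and no care in 470 (4.02%), against 7.85% and 3.82% over all windows.

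The called members were deep and rich in CpGs. They had a median of 1217 reads and 8 CpGs, and 24 of the 25 had 6 or more CpGs. They lay on 23 scaffolds, with absolute differences of 9.39 to 32.9 points and a median of 12.3 points. In 22 of the 25 the groups did not overlap, in 16 with care above and in 6 with no care above, which a call for a difference favours. Of those, the 4 with the smallest p in each direction are given with every library. The test treats reads as independent. A two-sided exact permutation test on 3 against 3 library levels cannot go below 0.1, and for windows chosen for no overlap it gives that value by construction, so it adds nothing here.

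Higher in care, scaffold86.2:146001-146200 (8 CpGs, 934 reads) was at 63.1%, 66.2% and 73.3% in care replicates 1, 2 and 3 and at 48.6%, 48.2% and 50% in no care replicates 1, 2 and 3. The difference was -18.0 points (adjusted p = 9.60e-05, logistic regression). The no care pools stood close together and the care pools were spread above them. The window stayed called without any one library. Care was higher at 7 of the 8 CpGs of this window, by 11.6 points at position 190 to 18.3 points at position 115. The exception was the first CpG, at position 4, with a pooled level of 6.25% and few reads (23 in care and 41 in no care).

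In scaffold334.2:254001-254200 (9 CpGs, 2114 reads) the levels were 36.2%, 34.6% and 33.7% in care and 21.9%, 26.9% and 27.3% in no care, a difference of -9.73 points (adjusted p = 0.00138, logistic regression). All care pools lay within a narrow band above the no care pools, and without care replicate 2 or no care replicate 1 the adjusted p was 0.0251 or 0.0804. In scaffold48.2:424601-424800 (6 CpGs, 1609 reads) they were 63.3%, 61.2% and 59.1% in care and 55.9%, 42.3% and 47.0% in no care, a difference of -12.1 points (adjusted p = 0.00163, logistic regression). No care replicate 1 came nearest to the care pools, and the adjusted p was 0.0485 and 0.0334 without no care replicates 2 and 3 and 0.0248 without the second care pool. This window lies in the gene model Ccalc.v2_000796, which has no fly name in the study's annotation. In scaffold93:660601-660800 (8 CpGs, 1207 reads) the levels were 60.4%, 52.0% and 70.7% in care and 47.6%, 40.7% and 50.6% in no care, a difference of -13.9 points (adjusted p = 0.00163, logistic regression). Care replicate 2 came nearest to the no care pools, and without care replicate 3 or no care replicate 2 the adjusted p was 0.101 or 0.0934.

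Higher in no care, scaffold124:442201-442400 (7 CpGs, 1445 reads) had the smallest p of all members. It was at 19.4%, 21.4% and 23.6% in care and at 34.7%, 31.7% and 38.2% in no care, a difference of 13.6 points (adjusted p = 5.00e-05, logistic regression). The window was not even: no care was higher at all 7 CpGs, but by 21.8 points at position 108 and by 4.88 points at position 133, where the pooled level was 2.47%. It too stayed called without any one library. In scaffold211.2:837001-837200 (8 CpGs, 474 reads) the levels were 17.9%, 14.1% and 14.8% in care and 36.2%, 35.2% and 30.4% in no care, a difference of 19.2 points (adjusted p = 0.00165, logistic regression). Every care library was below the lower limit of the range and every no care library inside it. Depth was low there, with 54 to 122 reads in a library, and the adjusted p was 0.049 without care replicate 2, 0.0176 without no care replicate 2 and 0.0321 with coverage of at least 5.

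In scaffold48.2:576801-577000 (8 CpGs, 695 reads) the levels were 35.2%, 20.7% and 25.8% in care and 46.5%, 42.2% and 45.9% in no care, a difference of 17.3 points (adjusted p = 0.00364, logistic regression). It lies in Ccalc.v2_000821, named after fly Pldn (pallidin), a subunit of the BLOC-1 complex that serves the making of lysosome-related organelles. With only CpGs of at least 10 reads in every library, the difference there was 5.13 points (adjusted p = 0.734). Without care replicate 2, care replicate 3 or no care replicate 1 the adjusted p was 0.138, 0.0177 or 0.0228. In scaffold185:156601-156800 (9 CpGs, 1359 reads) the levels were 22.2%, 22.8% and 14.6% in care and 35.9%, 24.4% and 30.9% in no care, a difference of 10.3 points (adjusted p = 0.00553, logistic regression). With the same coverage limit it was 5.37 points (adjusted p = 0.185). The adjusted p was 0.0103, 0.0727, 0.161 and 0.0184 without care replicates 2 and 3 and no care replicates 1 and 3.

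**Figure D5:**
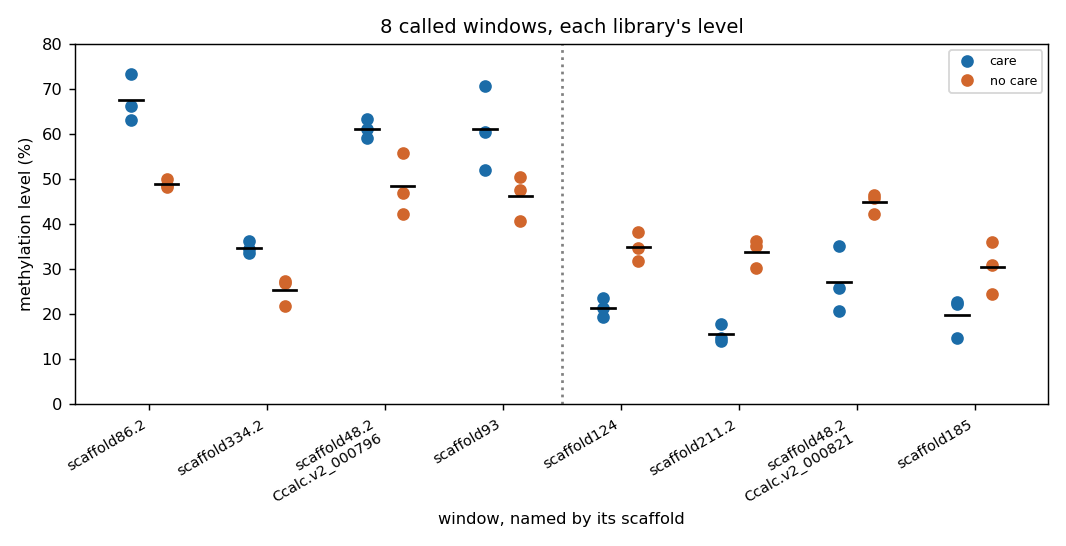
Methylation level (vertical axis, %) of each library in the 8 called members given above, with care in blue, no care in orange and the mean of 3 libraries as a black line. Left of the dotted line care is higher, as on scaffold86.2 with 63.1% to 73.3% against 48.2% to 50%; right of it no care is higher, as on scaffold211.2 with 30.4% to 36.2% against 14.1% to 17.9%.

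The remaining called members include 3 whose groups overlapped. In scaffold316.2:9201-9400, which had the most reads of the 25 (2518), no care replicates 1, 2 and 3 were at 20.3%, 33.2% and 37.2%, and care was at 36.4%, 37.9% and 45.1%. No care replicate 1 alone stood far below. In scaffold412.2:1201-1400 no care replicate 1, at 42.9%, lay inside the care values of 41.3% to 46.3%. In scaffold39.2:3175601-3175800 care replicate 3, at 36.6%, lay among the no care values of 31.6% to 36.6%. The called member with the largest difference, scaffold39.2:2247001-2247200, had the fewest reads. Its 3 CpGs had 96 reads in all, with 0% of 11, 5.26% of 19 and 0% of 7 reads in care and 52.4% of 21, 19.0% of 21 and 35.3% of 17 reads in no care.

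Gene models could be placed for a small part of the assembly. The study's annotation, as used here, gave positions for 823 consecutive gene models, with scaffold39.2 and scaffold78.2 whole and scaffold48.2 in part. On the first 2 of these scaffolds 704 of 762 members (92.4%) lay wholly inside a gene model, as did 1228 of 1329 weakly (92.4%) and 285 of 294 highly methylated windows (96.9%). At least 1 member lay in 290 of the 823 models and 5 or more in 61. Members inside one gene share that gene and often border each other. Exons, introns and UTRs were not told apart here.

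The 5 models with a fly name that held the most members held them beside windows of other levels. Ccalc.v2_000470, named after fly CG1172, held 20 members with 119 CpGs at 20.3% to 52.0%, along with 22 weakly and 11 highly methylated windows. Summed over its members, the level was 34.9%, 35.2% and 35.2% in care and 36.4%, 36.2% and 35.8% in no care. Here no care lay above care by about 1 point, with no overlap, and 10 of its 20 members were higher in care. Ccalc.v2_000709, named after Hel25E, a DEAD-box RNA helicase of mRNA splicing and export, held 15 members at 24.7% to 58.9%. They summed to 39.1%, 39.3% and 38.7% in care and to 37.9%, 36.4% and 36.3% in no care, with care above in every pool. Of these 15, 10 were higher in care.

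Ccalc.v2_000298, named after Pdi, the protein disulfide isomerase that folds secreted proteins in the endoplasmic reticulum, held 15 members at 20% to 41.7%. They summed to 41.6%, 32.8% and 29.3% in care and to 31.0%, 30.5% and 29.7% in no care. Care replicate 1 stood apart and the groups overlapped. One of its members, on scaffold39.2 at 3175601 to 3175800, was among the called windows with overlap named above, and lies also in Ccalc.v2_000299. Ccalc.v2_000316, named after Ythdf, a reader of N6-methyladenosine in RNA, held 14 members at 22.4% to 58.6%. They summed to 38.7%, 39.4% and 43.8% in care and to 39.8%, 40.4% and 40.7% in no care, with overlap. Ccalc.v2_000448, named after Tsp3A, a membrane protein of the tetraspanin family, held 13 members at 20.9% to 55.6%, with 32.3%, 34.3% and 34.7% in care and 33.2%, 32.9% and 35.8% in no care, also with overlap. In these 5 genes, no member other than that of Pdi was called.

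Expression was measured in other pools of heads, as counts per gene model with 26752341 to 31894020 counts per library, and tested by edgeR's quasi-likelihood test over 10763 genes. In bulk heads, fewer cells of a type and less RNA per cell cannot be told apart. Of the 5 genes, 4 were tested and 0 were called at an adjusted p under 0.01, against 7.01% of all genes tested. At an unadjusted p under 0.05 there was 1, Tsp3A, and DESeq2 called 0 of them as well. Ythdf had 4 to 12 counts in a library and did not pass the filter. Its model overlaps Ccalc.v2_000317, and counts of overlapping gene models are uncertain.

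Hel25E was at 381, 393 and 388 CPM in care and at 349, 348 and 359 CPM in no care. The groups did not overlap, with a log2 fold change of -0.14 (SE 0.07, adjusted p = 0.253 by edgeR) as no care over care. Tsp3A was at 188, 192 and 175 CPM in care and at 155, 148 and 173 CPM in no care, also without overlap, with a log2 fold change of -0.22 (SE 0.09, adjusted p = 0.118 by edgeR). Pdi, with 303.6 CPM ± 10.1 in care and 325.8 CPM ± 16.7 in no care, and CG1172, with 177 CPM ± 3.85 and 162 CPM ± 12.3 (SD, n = 3 pools), had adjusted p of 0.432 and 0.319 by edgeR. Pldn, Ccalc.v2_000796 and Ranbp16, a nuclear transport receptor whose model Ccalc.v2_000459 holds the called member scaffold78.2:729801-730000, were looked at because they hold a called member. Their log2 fold changes were -0.20, -0.16 and -0.27, with adjusted p of 0.222, 0.312 and 0.0308 by edgeR. Ranbp16 had 212, 211 and 212 CPM in care and 176, 172 and 179 CPM in no care, and DESeq2 gave an adjusted p of 0.00523. Its called window was also higher in care, at 50.6%, 33.4% and 35.9% against 23.8%, 27.7% and 33.3%. The other members of this model differed by 0.04 and -1.93 points. Called window and log2 fold change also shared a direction in Ccalc.v2_000796, at -12.1 points and -0.16. They did not in Pldn, at 17.3 points and -0.20, or in Pdi, at -14.5 points and 0.10.

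More widely, 260 of the 290 gene models that held a member (89.7%) passed the filter on low counts, and 344 of the 533 listed models without one (64.5%). Differentially expressed were 6 of the 260 (2.31%), 34 of the 344 (9.88%) and 7.01% of all genes tested. DESeq2 called 24 (9.23%) and 69 (20.1%) of them, and 15.1% of all genes tested. The counts moved with single libraries, from 0 called models with a member without care replicate 3 (1.62% of all genes, and 53 models at an unadjusted p under 0.05) to 20 without no care replicate 3 (10.5% of all genes), with 1 or 2 without each of the other 4 libraries. In edgeR with all libraries, in DESeq2 and without each library in turn, the share was lower among models with a member than among those without one and among all genes. Of the 55 tested models with 5 or more members edgeR called 0, DESeq2 called 1, and 9 had an unadjusted p under 0.05 by edgeR. Without no care replicate 3 edgeR called 3. The 6 comprised 5 higher in care and 1 higher in no care. The latter was Ccalc.v2_000453, named after VhaAC45, an accessory subunit of the proton pump of acidic organelles, with 31.2, 29.9 and 30.2 CPM in care and 43.2, 47.0 and 45.3 CPM in no care. Its log2 fold change was 0.57 (SE 0.08, adjusted p = 0.0032 by edgeR). Of the 5, Ccalc.v2_000804, named after NT5E-2, a 5'-nucleotidase, went from 19.98, 21.4 and 21.5 CPM in care to 7.48, 11.2 and 10.1 CPM in no care (log2 fold change -1.13, SE 0.16, adjusted p = 0.00357 by edgeR). Without care replicate 1, 2 or 3 neither of the 2 was called (adjusted p of 0.0117 to 0.0232 by edgeR), and without no care replicate 2 VhaAC45 had 0.016. They were singled out after their values were seen, and the shares are counts over one stretch of the assembly, given without a test.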

How the data were processed

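Bisulfite sequencing was done in 6 libraries and RNA sequencing in 6, with 3 per group and groups taken from the sample labels. For methylation, the authors trimmed reads with Trimmomatic 0.32, aligned them with Bismark 0.14.5, dropped duplicates and joined both strands of each CpG. CpGs without methylation above nonconversion in any library had been left out. Per CpG, the deposited files hold a count of reads (coverage) and the methylated and unmethylated percent. Methylated reads were recovered as percent times coverage. For expression, the authors aligned with TopHat and deposited raw counts per gene model, and genes above 0.18 CPM in more than 3 libraries were tested here.

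Members and lists were chosen with earlier results of these data known. Windows were compared by a likelihood ratio test of a logistic regression without overdispersion, and p-values were adjusted by Benjamini-Hochberg over 45303 windows. Named windows are the 4 called members per direction with the smallest p and no overlap, the 3 with the widest and the 3 with the narrowest CpG range, the 3 with the widest library range and the 2 longest runs. Named genes are the 5 named models holding the most members. No sequence was read, since no genome was used here. Libraries were not treated as paired by replicate number. Intervals and p-values from reads cover read sampling only. Python 3.11.15 (numpy 2.4.6, scipy 1.17.1, pandas 2.3.3, matplotlib 3.10.9) and R 4.3.3 (edgeR 4.0.16, DESeq2 1.42.0, limma 3.58.1) were used.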

Additional observations from a re-analysis of the deposited data

How the results depend on the processing

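The count of 25 called members (19 higher in care) was 22 to 28 under several settings. These were coverage of at least 5 or 10, no maximum coverage and windows shifted by 100 bp. The others were 4 to 9 CpGs, levels averaged over libraries and levels centred. Over these settings 0.316% to 0.564% of all windows were called, against 0.32%. With coverage of at least 5 and 10, 22 of 27 and 14 of 22 calls were among the 25 windows, and 25 of 28 with no maximum coverage. The count was 20 with a difference of more than 10 points, where 0.139% of all windows were called. It was 0 (0 higher in care) with an overdispersion in each window and with limma, 8 (6) with one overdispersion, 2 (1) with its mean, 9 (8) for a level of 30% to under 50%, and 81 (64) at an adjusted p of 0.05, where 0.987% of all windows were called. The wider threshold at an adjusted p of 0.05 can only add calls. For a level of 30% to under 50% there were fewer members (5321), and the share called was also lower. It was 0.169%, against 0.214% of the members in the main setting. This share lay below the 0.184% of windows with 2 to 9 CpGs, and that of the main setting lay above it. For this lower share and for the counts of 0 the cause was not tested. Leaving out each library gave 8 to 25 calls, with 4 to 20 higher in care, and 50 to 129 over all windows (145 with all libraries). Without care replicates 1, 2 and 3, 15 of 21, 6 of 9 and 14 of 22 calls were among the 25 windows. Without no care replicates 1, 2 and 3 these were 12 of 16, 7 of 8 and 14 of 25. With the replicate number as a block 25 were called, 22 of them the same windows, and 136 over all windows. Deviations of same-numbered libraries correlated at 0.000788 to 0.0087 over all windows and at 0.00973 to 0.028 over members. Differently numbered libraries were at -0.0146 to 0.00713 and at -0.0294 to 0.0116. The labels give no pairing, and these small values do not decide it.

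Members numbered 7773 and 4635 with coverage of at least 5 and 10, 5321 for a level of 30% to under 50%, and 11683 to 11820 without single libraries. The difference in pooled level stayed below 0 throughout, at -1.57 to -1.05 points without single libraries. The mixed share was 51.1% with 4 to 9 CpGs, 50.9% for a level of 30% to under 50%, 56.1% for a range over 40 points and 40.6% to 41.5% without single libraries. It was 48.5% to 56.4% from the reads of 1 library, and the cause was not tested. The 8 named windows stayed called in 91 of 135 values under alternatives. Their direction was kept in all 135, which adds little. The windows were chosen for no overlap between the groups, and a change of test or threshold leaves the difference as it was. None of the 5 genes was called under any alternative, 0 to 0 without single libraries. Gene models with a member that were called numbered 6 (7.01% of all genes tested), against 24 with DESeq2 (15.1%), 11 with no filter on low counts (5.87%), 2 with the replicate block (3.45%) and 0 to 20 without single libraries (1.62% to 10.5%).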
